A study of Mus musculus with 12 samples.

Results

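The 10 genes described here encode proteins that break down haem or handle the iron it releases: Hmox1, Blvra, Blvrb, Fth1, Ftl1, Tfrc, Slc40a1, Slc11a1, Slc11a2 and Hp. They were chosen by name among 36981 genes with a probe on an Agilent mouse expression array, and all 10 were among the 19761 genes tested. Their RNA was measured in mouse hearts, 1 array per sample and 3 arrays in each of 4 groups. TG+MI hearts carried the transgene for the long non-coding RNA CCRR and had undergone myocardial infarction. WT+MI hearts were infarcted wild-type hearts of the strain C57/BL6. TG hearts carried the transgene without infarction, and WT hearts, also C57/BL6, had neither. The labels name no strain for the transgenic groups, so strain and transgene cannot be told apart. The promoter that drives the transgene, the age of the mice and the delay from infarction to sampling are likewise not given. The study asks whether CCRR limits the inflammatory response to infarction. Whether each heart sample is from an animal of its own is not stated, so a p-value here measures a spread between samples that may be technical.

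Haem set free from damaged myocytes, or from red cells that leak into an infarct, is toxic until it is bound or degraded. Haptoglobin captures free haemoglobin, haem oxygenase opens the haem ring and releases iron, carbon monoxide and biliverdin, and biliverdin reductases turn biliverdin into bilirubin. The iron is stored inside the protein shell of ferritin, exported through ferroportin, or moved across endosomal membranes by divalent metal transporters. When iron is plentiful, iron regulatory proteins release their hold on the ferritin messages, which are then translated, and on the transferrin receptor message, which is then degraded.

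On the array 18 probes carry the name of one of the 10 genes, each of 60 bases. The 3′ ends of probes behind the results on Hmox1, Ftl1, Tfrc and Slc11a1, and of the 4 probes of Slc11a2, whose readings differed, are shown here, 5′ to 3′, as the last 30 bases. Capitals mark the hexamer AATAAA, the polyadenylation signal that stands shortly before the end of a message.
Hmox1 probe 1: accttggtctctaacttctgtgtgaaataa
Hmox1 probe 2: cttatctcaacctttgacgtgcataagggg
Ftl1 probe 1: ggaccaagtaaaAATAAAgctttttgagac
Ftl1 probe 2: ccaggatgtgcagaagccatctcaagatga
Tfrc probe 1: taagctggaactttcacagaatcaaaatgt
Tfrc probe 2: aaccatcattacgcatctaatcagttttgc
Slc11a1 probe 1: tcggaataatgacaccattcttatcaccac
Slc11a2 probe 1: ttgttatAATAAAgttcatgcttaatagct
Slc11a2 probe 2: gtgccagtttgggtaagattttaaggttat
Slc11a2 probe 3: acggtacttcaacagtacagtaacctgtaa
Slc11a2 probe 4: ttgatgagaaaatccccattcctgaggagg

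Per the file headers, positions are on the mm9 build. The first Hmox1 probe lies on the plus strand at chr8:77624406-77624466, and the second, designed to another Hmox1 transcript, at chr8:77620085-77620144. The second was above background on 2 of 12 arrays and was not tested. The Ftl1 probes lie on the minus strand at chr7:52713318-52713377 and chr7:52714014-52714495, and the Tfrc probes on the plus strand at chr16:32620470-32620529 and chr16:32632255-32632314. The Slc11a1 probe is at chr1:74432161-74432220 on the plus strand. The 4 Slc11a2 probes run along the minus strand from chr15:100218333-100218392, which holds the hexamer, through chr15:100219212-100219271 and chr15:100223347-100223406 to chr15:100240516-100240575, and the third was designed to another transcript than the other probes. Exon borders on this build were not used here. No member probe shared a stretch of 25 bases with a probe of another gene name.

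Values below are log2 of the processed Cy3 intensity minus the array's 75th percentile, so that 0 is the level that 75% of probes lie below; they compare 1 probe across arrays and not 1 gene with another. Where a gene had several probes, the brightest stood for it. Differences are given on the same log2 scale with their standard error (SE) from limma, from 1 model of all 12 arrays, and a gene was called where its p, adjusted by Benjamini-Hochberg over the 19761 genes, was under 0.05. That percentile ranged over 138 to 260 intensity units, 47.0% to 55.2% of an array's probes were well above background, and 0 spots were saturated. The 10 cardiomyocyte markers, which check the labelled tissue, were all tested, and their signals summed to 2657 to 3453 times the 75th percentile in TG+MI, 2565 to 3502 in WT+MI, 2533 to 3173 in TG and 3355 to 4375 in WT. Atrial markers (4 of 5 tested) summed to 75 to 322 in TG+MI, 235 to 677 in WT+MI, 477 to 1495 in TG and 54.5 to 55.9 in WT, so that atrial marker signal was higher on every TG array than on any WT array. In both infarcted groups the sums were mostly 1 marker, Nppa. Another, Myl4, read 2.08, 5.27 and 1.31 in TG+MI and 7.15, 0.66 and 0.83 in WT+MI. It read 6.90 to 9.05 in TG and 1.12 to 1.39 in WT. The arrays lay on 2 slides scanned separately: slide 1 held all WT and WT+MI arrays with TG 1 and TG 2, and slide 2 held TG 3 and all TG+MI arrays. TG+MI and WT+MI shared no slide, and a slide term in the model rests on TG 3 against TG 1 and TG 2.

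In wild-type hearts infarction raised 4 of the 10 genes, Hmox1, Hp, Slc11a1 and Ftl1, and lowered 1, Tfrc, while Slc40a1, Slc11a2, Fth1, Blvra and Blvrb did not pass the test. Of all tested genes, 47.9% were called in WT+MI against WT, so that 5 of 10 is close to the share of genes at large; 18.6% were called higher and 29.3% lower. The arrays of the groups did not overlap for 7 of the 10, which 63.7% of all genes shared. The members' median difference was 0.22, against -0.14 over all genes. Both groups lie on slide 1, so no slide difference enters this comparison. In bulk tissue, fewer cells of a type and less RNA per cell cannot be told apart, which holds for each difference below.

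In transgenic hearts infarction raised 1 of the 10 genes, Hmox1, and lowered 1, Tfrc. The share called over all genes in TG+MI against TG was 8.85%, with 5.21% higher and 3.64% lower. Arrays did not overlap for 3 of the 10, against 30.0% of all genes, and the members' median difference was 0.02, against 0.04 over all genes. On slide 2 alone, which holds TG 3 as the single TG array and where 0 of all tested genes passed limma's test, Hmox1 differed by 3.49 (limma adjusted p = 0.0652) and Tfrc by -2.40 (limma adjusted p = 0.126). With TG 3 the lone TG array there, it was assumed to vary as the TG+MI arrays do.

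Between infarcted hearts, TG+MI lay below WT+MI for 2 of the 10 genes, Hmox1 and Slc11a1, and 0 were higher. Over all genes 12.2% were called in that comparison, 4.38% lower and 7.79% higher. Arrays did not overlap for 5 of the 10, against 34.0% of all genes. The members' median difference was -0.37, against 0.09 over all genes. With slide as a block, 0 of the 10 and 0 of all tested genes were called, so the transgene and the slide cannot be told apart for this pair of groups.

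Without infarction, 0 of the 10 genes passed limma's test in TG against WT. Of all genes, 2.62% were called there, 1.49% higher and 1.13% lower. Hp and Fth1 had the lowest unadjusted limma p of the 10, 0.00778 and 0.00965. Arrays did not overlap for 3 of the 10, against 33.5% of all genes. The infarction response itself was compared between genotypes as an interaction, the TG+MI minus TG difference less the WT+MI minus WT difference. It was called for 3 of the 10 genes, Hmox1, Hp and Slc11a1, each with the smaller response in transgenic hearts, against 8.90% of all genes, 3.05% in that direction and 5.85% in the other. With slide as a block, none of the 3 passed. The comparisons with WT share the WT arrays, and those with WT+MI the WT+MI arrays, so the results are not independent of each other.

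**Figure D1:**
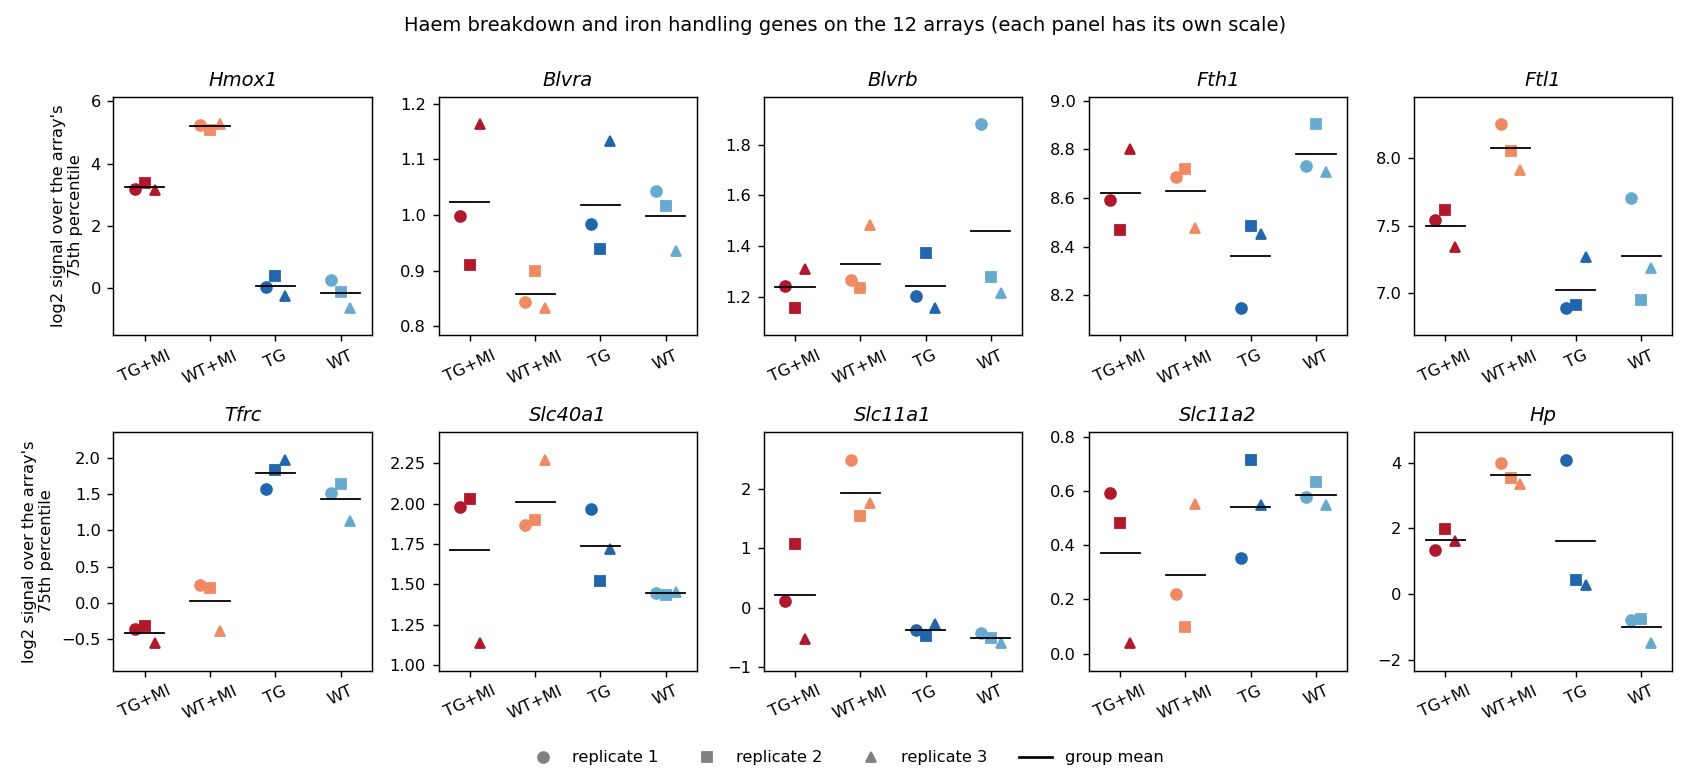
Log2 signal over the array's 75th percentile (vertical axis, its own scale in each panel) of the 10 genes on the 12 arrays, by group; symbols give the replicate number and bars the group mean (n = 3). The WT+MI arrays of Hmox1 sit between 5.08 and 5.27 and the TG+MI arrays between 3.16 and 3.38, all above the TG and WT arrays, and TG 1 stands apart for Hp.

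**Figure D2:**
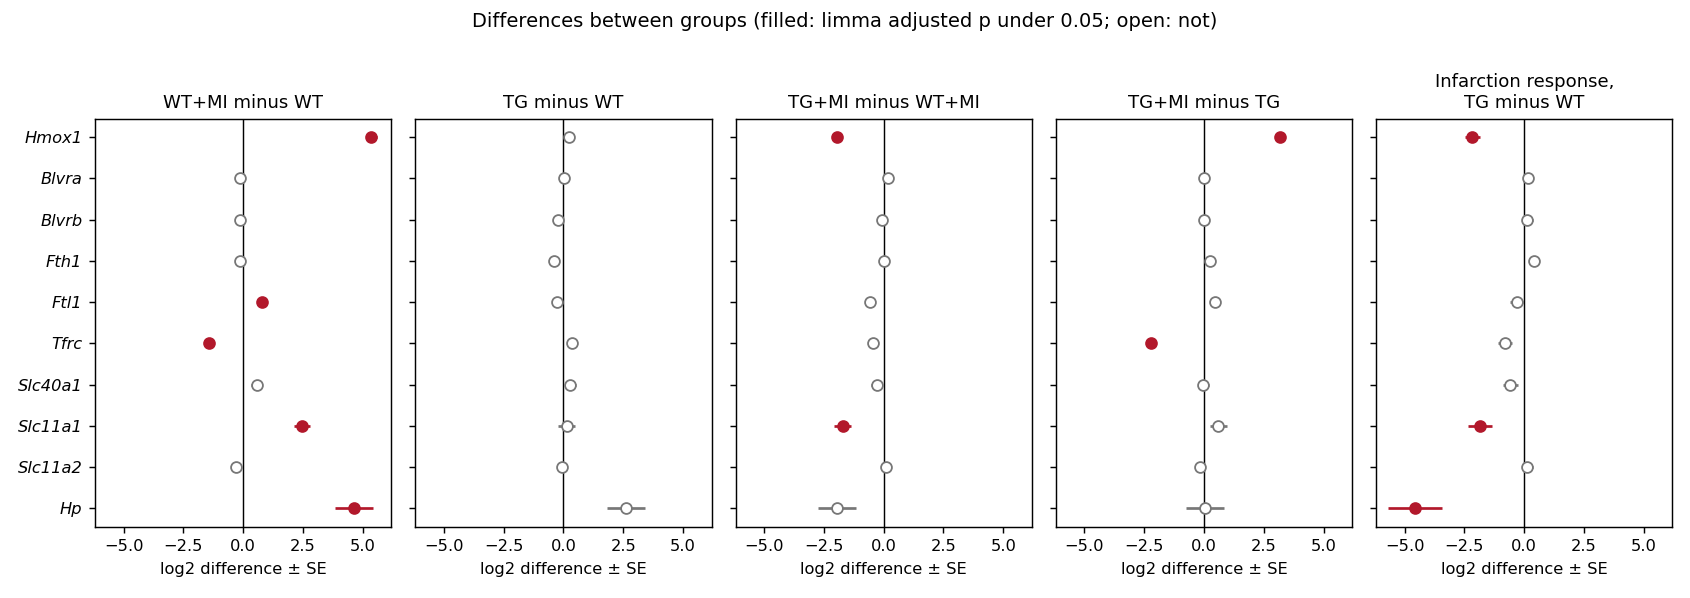
Log2 differences with their SE (horizontal axis; where no bar shows, the SE is smaller than the symbol) for the 10 genes in the 4 comparisons and the interaction, filled where limma's adjusted p was under 0.05. Hmox1 is filled in 4 of the 5 panels, and the TG against WT panel has 0 filled symbols.

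Hmox1, the inducible haem oxygenase, had the widest range of the 10 genes over the arrays, 5.90. It read 3.19, 3.38 and 3.16 in TG+MI, 5.25, 5.08 and 5.27 in WT+MI, 0.03, 0.39 and -0.25 in TG, and 0.25, -0.11 and -0.63 in WT. The infarcted groups overlapped neither each other nor the uninfarcted ones, while TG and WT overlapped. Hmox1 was 41.1-fold higher in WT+MI than in WT (log2 difference 5.36 ± 0.22, limma adjusted p = 1.06e-06) and 9.11-fold higher in TG+MI than in TG (3.19 ± 0.22, limma adjusted p = 8.83e-05). TG+MI was 3.87-fold lower than WT+MI (-1.95 ± 0.22, limma adjusted p = 0.0181), and TG differed from WT by 0.22 ± 0.22 (limma adjusted p = 0.649). In order of level, WT+MI stood first, TG+MI second, and TG and WT last with a difference within their spread.

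The smaller Hmox1 response in transgenic hearts was called as an interaction of -2.17 ± 0.31 (limma adjusted p = 0.0156). The gap between TG+MI and WT+MI lost its call with slide as a block (-1.49, limma adjusted p = 0.648), when only those groups were fitted (limma adjusted p = 0.0529), and without TG+MI 1 or TG+MI 3 (0.0746 and 0.0652). The interaction lost its call with slide as a block (-1.87, limma adjusted p = 0.125) and kept it in each of the 12 fits that left out 1 array.

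Blvra and Blvrb, the biliverdin reductases that act on the product of haem oxygenase, were not called in any comparison. Blvra read 0.998, 0.91 and 1.16 in TG+MI, 0.84, 0.90 and 0.83 in WT+MI, 0.98, 0.94 and 1.13 in TG, and 1.04, 1.02 and 0.94 in WT. The WT+MI arrays lay just below those of WT, by -0.14 ± 0.10 (limma adjusted p = 0.269). The other Blvra probe, nearer the 5′ end of the gene, gave -0.38 ± 0.10 in a fit over all probes (limma adjusted p = 0.0107) and was called lower.

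Blvrb read 1.24, 1.16 and 1.31 in TG+MI, 1.27, 1.23 and 1.48 in WT+MI, 1.20, 1.37 and 1.16 in TG, and 1.88, 1.28 and 1.22 in WT. The groups overlapped, and 1 array, WT 1, stood above the rest. Differences for Blvrb ran between -0.21 and -0.01 in the 4 comparisons, none of them called. WT 1 was also the array with the strongest erythroid signal, where 15 markers, 11 of them tested, summed to 2562, against 1691 in WT 2 and 1654 in WT 3. The part of red cell RNA in the Blvrb reading of WT 1 was not tested.

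Ferritin is built of a heavy chain, Fth1, which oxidises iron, and a light chain, Ftl1, which helps to form the mineral core. Their messages moved unequally. Ftl1 read 7.54, 7.61 and 7.34 in TG+MI, 8.25, 8.05 and 7.92 in WT+MI, 6.89, 6.91 and 7.27 in TG, and 7.70, 6.94 and 7.19 in WT. All WT+MI arrays lay above those of every other group. Ftl1 was 1.74-fold higher in WT+MI than in WT (0.80 ± 0.19, limma adjusted p = 0.00679), and its other probe gave 0.98 ± 0.23 (limma adjusted p = 0.00642). TG+MI differed from TG by 0.48 ± 0.19 (limma adjusted p = 0.15) and from WT+MI by -0.57 ± 0.19 (limma adjusted p = 0.0707), with no overlap in either pair and no call.

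Fth1 read 8.59, 8.47 and 8.80 in TG+MI, 8.69, 8.72 and 8.48 in WT+MI, 8.15, 8.49 and 8.45 in TG, and 8.73, 8.90 and 8.71 in WT. The infarcted groups overlapped their uninfarcted counterparts, and the TG arrays lay below all WT arrays. That difference, -0.42 ± 0.13, had an unadjusted limma p of 0.00965 and a limma adjusted p of 0.135. It ranged from -0.48 to 0.003 over 23 alternatives, so it depended on the processing. Before the 75th percentile was subtracted, the groups overlapped, at 73753 to 78122 intensity units in TG and 66095 to 83470 in WT. That percentile was 260 in TG 1, the lowest array for Fth1, and 138 in WT 2, the highest. WT+MI differed from WT by -0.15 ± 0.13 (limma adjusted p = 0.366) and TG+MI from TG by 0.26 ± 0.13 (limma adjusted p = 0.251).

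Tfrc, the transferrin receptor that brings transferrin-bound iron into cells, was lower after infarction in both genotypes. It read -0.37, -0.33 and -0.56 in TG+MI, 0.24, 0.20 and -0.39 in WT+MI, 1.57, 1.83 and 1.98 in TG, and 1.52, 1.65 and 1.13 in WT. Every array of infarcted hearts lay below every array of uninfarcted ones. Tfrc was 2.66-fold lower in WT+MI than in WT (-1.41 ± 0.20, limma adjusted p = 0.000471) and 4.64-fold lower in TG+MI than in TG (-2.21 ± 0.20, limma adjusted p = 0.000309).

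The second Tfrc probe was lower too, with a difference of -2.004 ± 0.23 in WT+MI against WT (limma adjusted p = 0.000204) and of -2.45 ± 0.23 in TG+MI against TG (limma adjusted p = 0.000378). TG+MI differed from WT+MI by -0.44 ± 0.20 at the first probe (limma adjusted p = 0.148), with the low WT+MI 3 array inside the TG+MI range, and by 0.10 ± 0.23 at the second. Without WT+MI 3, the first probe passed (-0.64, limma adjusted p = 0.0411), and so did the interaction (-1.01, limma adjusted p = 0.0339). With all arrays that interaction was -0.80 ± 0.28 (limma adjusted p = 0.0846).

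Slc40a1 encodes ferroportin, the known exporter of iron from mammalian cells. It read 1.98, 2.03 and 1.14 in TG+MI, 1.87, 1.90 and 2.27 in WT+MI, 1.97, 1.52 and 1.72 in TG, and 1.45, 1.44 and 1.45 in WT. The WT arrays lay close together and below all WT+MI and TG arrays, and TG+MI 3 was the lowest of the 12. WT+MI differed from WT by 0.57 ± 0.22 (limma adjusted p = 0.0584), which passed in 6 of the alternatives tried, among them slide 1 alone (limma adjusted p = 0.021) and the fit without TG+MI 3 (limma adjusted p = 0.00777). TG+MI and TG overlapped, with a difference of -0.02 ± 0.22. A second Slc40a1 probe, to another transcript, was above background on 1 of 12 arrays.

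Slc11a2 encodes the divalent metal transporter DMT1, which carries iron out of endosomes and whose messages differ at their ends. At its brightest probe it read 0.59, 0.48 and 0.04 in TG+MI, 0.22, 0.10 and 0.55 in WT+MI, 0.35, 0.72 and 0.55 in TG, and 0.58, 0.63 and 0.55 in WT. The groups overlapped there. Its 4 probes did not move alike in WT+MI against WT. The probe with the polyadenylation signal gave -0.29 ± 0.17 (limma adjusted p = 0.175), and the third gave -0.14 ± 0.16. The second gave 0.72 ± 0.23 (limma adjusted p = 0.0259) and the fourth 0.53 ± 0.27 (limma adjusted p = 0.129).

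The second Slc11a2 probe read 0.41, 0.53 and -0.53 in TG+MI, 0.80, 0.54 and 0.60 in WT+MI, -0.10, 0.01 and -0.05 in TG, and 0.04, -0.13 and -0.11 in WT. All WT+MI arrays were above the WT and TG arrays, 2 of 3 TG+MI arrays were as well, and TG+MI 3 was the lowest of the 12. Whether the probes read different message ends was not tested.

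**Figure D3:**
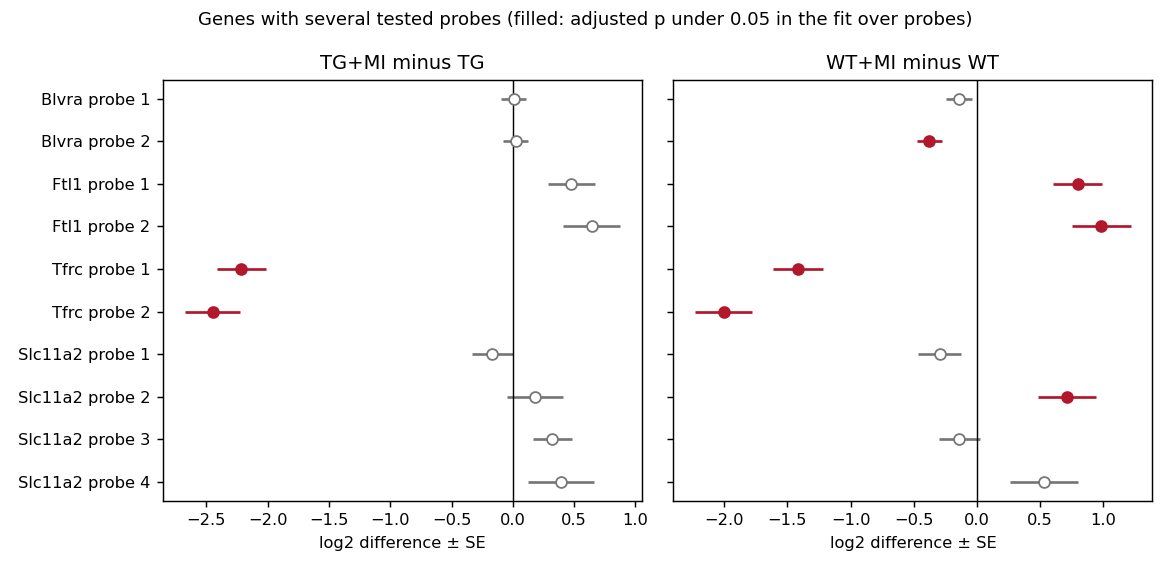
Log2 differences with their SE (horizontal axis) for each tested probe of the 4 genes with several, TG+MI minus TG on the left and WT+MI minus WT on the right, filled where limma's adjusted p over all probes was under 0.05. The probes of Ftl1 and of Tfrc lie on one side of 0 in both panels, and those of Slc11a2 lie on both sides in each panel.

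Slc11a1 encodes NRAMP1, a metal transporter of the phagosomes of macrophages and neutrophils. It read 0.11, 1.07 and -0.53 in TG+MI, 2.50, 1.55 and 1.77 in WT+MI, -0.37, -0.49 and -0.28 in TG, and -0.42, -0.52 and -0.60 in WT. All WT+MI arrays were above every other array, the TG and WT arrays lay close together, and the TG+MI arrays were spread out, with TG+MI 3 within the WT range. Slc11a1 was 5.49-fold higher in WT+MI than in WT (2.46 ± 0.35, limma adjusted p = 0.000507). TG+MI differed from TG by 0.60 ± 0.35 (limma adjusted p = 0.312).

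TG+MI was 3.30-fold lower than WT+MI for Slc11a1 (-1.72 ± 0.35, limma adjusted p = 0.0285), and the interaction was -1.86 ± 0.49 (limma adjusted p = 0.0462). Neither call held under every alternative. The first was lost without WT+MI 1 (-1.44, limma adjusted p = 0.086), without TG+MI 1 (-1.67, limma adjusted p = 0.0883), without TG+MI 3 (-1.35, limma adjusted p = 0.0739), with slide as a block (-1.87, limma adjusted p = 0.648), with no filter on dim probes and when only those groups were fitted. The interaction lost its call in 10 of the 12 fits that left out 1 array, where limma adjusted p ranged up to 0.0968.

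Markers of the cells known to carry Slc11a1 went with it in part. Neutrophil markers (12 of 14 tested) summed to 195 to 218 times the 75th percentile in TG+MI and 385 to 565 in WT+MI. They summed to 118 to 129 in TG and 142 to 159 in WT. Of the 12, 7 were called higher in WT+MI against WT and 2 lower, against 18.6% and 29.3% of all genes. Monocyte and macrophage markers (17 tested) summed to 117 to 188 in TG+MI, 196 to 305 in WT+MI, 195 to 213 in TG and 147 to 189 in WT. Of the 17, 5 were called higher in WT+MI against WT and 0 lower, against the same shares of all genes. Neutrophil sums were highest in WT+MI, as Slc11a1 was, while the macrophage sums of WT+MI overlapped those of TG. In TG+MI against WT+MI, which shared no slide, 5 of the 12 neutrophil and 4 of the 17 macrophage markers were called lower. In both lists 0 were higher, where 4.38% of all genes were lower and 7.79% higher. On TG+MI 1, 2 and 3 the macrophage sums were 166, 188 and 117, and the neutrophil sums 199, 218 and 195. TG lay below WT for neutrophils and above it for macrophages, where the Slc11a1 readings of TG and WT overlapped. The neutrophil sums of TG+MI, TG and WT were mostly 1 marker, Csf3r, which read 6.80 to 7.06 in TG+MI, 6.83 to 6.96 in TG and 6.995 to 7.24 in WT. All markers of both lists were above background on at least 1 array. WT+MI 1 had the highest sum of both lists and the highest Slc11a1 reading. Their part in the Slc11a1 differences was not tested.

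Hp encodes haptoglobin, made mainly by the liver and also known from neutrophils and fat. It read 1.35, 1.99 and 1.62 in TG+MI, 3.98, 3.52 and 3.35 in WT+MI, 4.09, 0.44 and 0.29 in TG, and -0.78, -0.77 and -1.49 in WT. The WT+MI arrays lay above all WT and TG+MI arrays, and TG 1 was the highest of the 12, far above TG 2 and TG 3. Hp was 24.8-fold higher in WT+MI than in WT (4.63 ± 0.80, limma adjusted p = 0.00127). TG+MI differed from WT+MI by -1.97 ± 0.80 (limma adjusted p = 0.116) and from TG by 0.04 ± 0.80 (limma adjusted p = 0.98), and TG differed from WT by 2.62 ± 0.80 (limma adjusted p = 0.123).

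A single array decided several of these Hp values. Without TG 1 the spread fell, TG+MI differed from TG by 1.29 (limma adjusted p = 0.037) and from WT+MI by -1.97 (limma adjusted p = 0.0316), and TG differed from WT by 1.38 (limma adjusted p = 0.0502). The interaction, -4.59 ± 1.13 (limma adjusted p = 0.0409), was lost in 8 of the 12 fits that left out 1 array and with slide as a block (-3.27, limma adjusted p = 0.262). Its value without TG 1 was -3.35. On slide 2 alone, TG+MI stood above TG 3 by 1.36 (limma adjusted p = 0.375).

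TG 1 also had the highest adipocyte signal. The 9 adipocyte markers, 7 of them tested, summed to 379 in TG 1, against 189 in TG 2 and 197 in TG 3, and lay between 140 and 229 in TG+MI, 145 and 157 in WT+MI, and 167 and 193 in WT. Adipoq, the adiponectin gene, read 3.33 in TG 1, -1.61 in TG 2 and -1.13 in TG 3. Of 6 liver markers, 4 were tested and Apoa1 was never above background. They summed to 2.38 to 3.81 in TG+MI, 3.02 to 3.37 in TG and 3.17 to 3.41 in WT. In WT+MI 1, 2 and 3 they summed to 13.1, 10.7 and 2.17, where Hp read 3.98, 3.52 and 3.35. The WT+MI arrays had high Hp with adipocyte sums under those of WT, and the neutrophil sums given above were highest there. Outside TG 1, however, the adipocyte sums were mostly Fabp4, which read 7.13 to 7.83 over the 12 arrays. Adipoq overlapped between WT+MI (-4.42, -5.38 and -3.27) and WT (-5.37, -1.89 and -4.00). The part of fat, liver or neutrophil RNA in Hp was not tested.

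**Figure D4:**
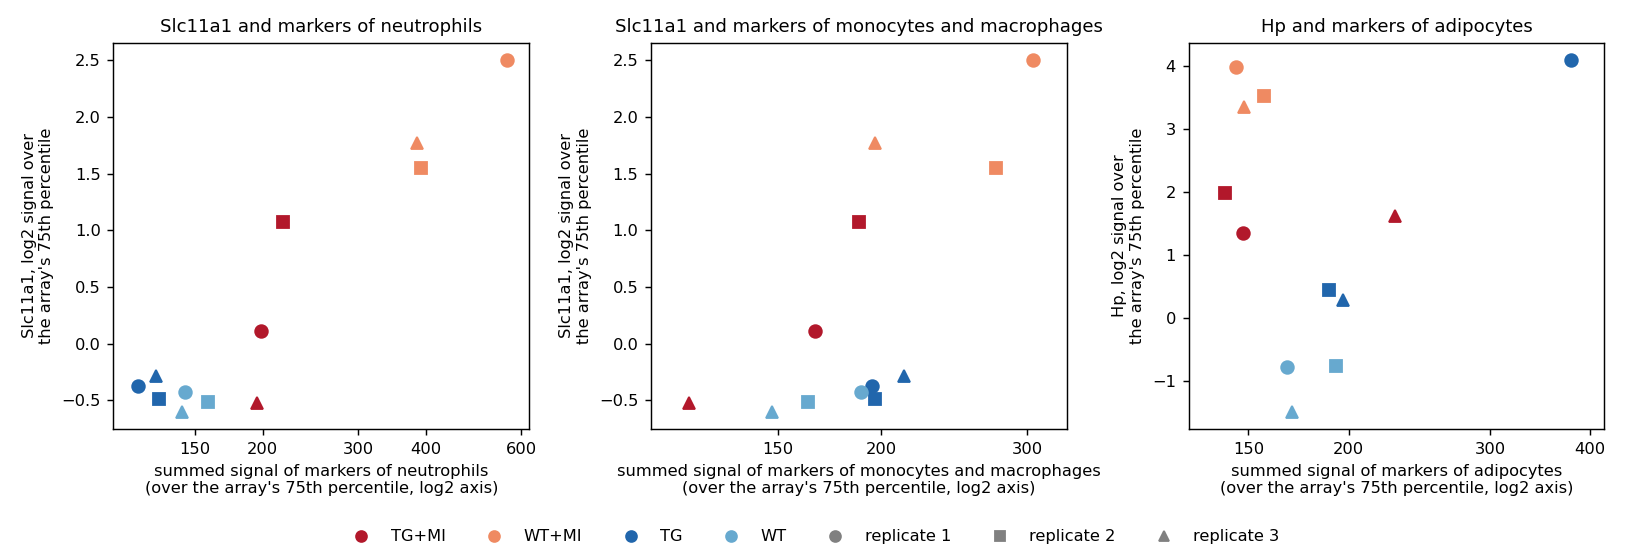
Log2 signal of Slc11a1 (vertical axis) against the summed signal of neutrophil markers and of monocyte and macrophage markers, and log2 signal of Hp against that of adipocyte markers (horizontal log2 axes, over the array's 75th percentile), 1 symbol per array. WT+MI 1 is highest for Slc11a1 and for both leukocyte sums, and TG 1 is highest for Hp and for the adipocyte sum.

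The genes whose pattern over the 12 arrays was most like each of the 3 members with the widest range were found by Pearson's r across all tested genes, as a description of arrays that share groups and slides. For Hmox1 (range 5.90) these were AA467197 (r = 0.989), Gm4430 (0.986), Rhoc (0.985), Tubb6 (0.984) and Nop58 (0.984). Those most like Slc11a1 (range 3.102) were Prelid1 (0.994), Fgd3 (0.994), Hk3 (0.993), Rab32 (0.992) and Alkbh2 (0.991). Hp (range 5.58) was followed less closely, with Aebp1 at 0.955, Sh2b2 at 0.949 and Plet1 at 0.944 among the first 5.

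Around the 10 genes, 72 other genes of haem and iron biology were on the array and 65 were tested. In WT+MI against WT 15 were called higher and 30 lower, against 18.6% and 29.3% of all genes, with a median of -0.35 against -0.14 over all genes. In TG+MI against TG 8 were higher and 5 lower, against 5.21% and 3.64% of all genes. In TG+MI against WT+MI 9 were higher and 4 lower, against 7.79% and 4.38%. TG against WT gave 2 higher and 1 lower, against 1.49% and 1.13%. Leaving out 1 array in turn gave 13 to 16 higher and 23 to 32 lower in WT+MI against WT, the fewest lower without WT 1. In TG+MI against TG it gave 6 to 9 higher and 1 to 9 lower, with 1 lower without TG 1 and 2 lower without WT 1. In TG+MI against WT+MI it gave 0 to 11 higher and 0 to 5 lower. There were 0 of either without TG+MI 1 or TG+MI 3, as with slide as a block, and 2 of each without WT 1. In TG against WT it gave 1 to 3 higher and 0 or 1 lower.

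Haem synthesis genes fell after infarction in wild-type hearts: 9 of 10 were called lower, against 29.3% of all genes, with a median of -0.74. Alas2, the erythroid form of the rate-limiting synthase, differed by -2.41 ± 0.89 (limma adjusted p = 0.0456), ferrochelatase (Fech), which inserts the iron, by -1.14 ± 0.27 (0.00622), uroporphyrinogen synthase (Uros) by -1.09 ± 0.20 (0.00184) and Alas1, the housekeeping synthase, by -0.90 ± 0.17 (0.002). Alas2 read 7.24 in WT 1, 3.13 in WT 2 and 4.24 in WT 3, against 2.14 to 2.76 in WT+MI. WT 1 was highest for Alas2 and for the erythroid sum, and the erythroid sums of WT+MI, 1072 to 1357, lay below all those of WT. Without WT 1 Alas2 differed by -1.23 (limma adjusted p = 0.132), Fech by -0.75 (limma adjusted p = 0.00472), and the count was 7 of 10. The Alas2 call was lost in 9 of the 12 fits that left out 1 array. The part of red cell RNA in Alas2 was not tested. Transgenic hearts gave 0 of 10 called in TG+MI against TG at a median of -0.04. Of all genes, 8.85% were called there and 3.64% were lower, so 0 of 10 is close to the share of genes at large. Between infarcted hearts Alad (0.48 ± 0.13, limma adjusted p = 0.0456) and Urod (0.47 ± 0.13, limma adjusted p = 0.0413), both of the steps before protoporphyrin, were higher in TG+MI than in WT+MI. The infarction response differed between genotypes for the same pair, with an interaction of 0.76 ± 0.19 for Alad (limma adjusted p = 0.0415) and 0.73 ± 0.18 for Urod (limma adjusted p = 0.0406). Of the 12 fits that left out 1 array, Alad kept its call in 2 and Urod in 3 in TG+MI against WT+MI, and the same numbers held for the interaction. In the interaction, none of the 65 genes was called higher without WT 1, WT 2, WT 3 or TG 1. The same held in TG+MI against WT+MI without TG+MI 1 or TG+MI 3.

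Of the iron-sulfur cluster assembly genes, which use mitochondrial iron, 9 of 11 were lower in WT+MI than in WT, against 29.3% of all genes, with a median of -0.60. Cardiomyocyte marker sums were 2565 to 3502 in WT+MI, against 3355 to 4375 in WT, and overlapped; their part in these differences was not tested. Hscb, a cochaperone, differed by -1.13 ± 0.18, the carrier Isca1 by -1.10 ± 0.18 and the cysteine desulfurase Nfs1 by -0.65 ± 0.14. In TG+MI against TG 0 of 11 were called, at a median of -0.05, where 8.85% of all genes were called and 3.64% were lower. Isca1 (0.66 ± 0.18) and Isca2 (0.49 ± 0.12) were higher in TG+MI than in WT+MI, and the infarction response differed between genotypes for Isca1 (interaction 0.96 ± 0.25, limma adjusted p = 0.0453). With 1 array left out, Isca1 kept its TG+MI against WT+MI call in 3 of 12 fits and its interaction in 2, and Isca2 kept its call in 4.

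Of the genes of the antioxidant programme that Hmox1 belongs to, most of them targets of the factor NRF2, 7 of 10 were higher and 0 lower in WT+MI against WT, where 18.6% of all genes were higher, with a median of 0.86. The others were Keap1 and Bach1, which hold NRF2 and its targets in check, and the NRF2 target Nqo1, at -0.30 ± 0.19 (limma adjusted p = 0.213). Osgin1 differed by 2.01 ± 0.36, sulfiredoxin (Srxn1) by 1.76 ± 0.19 and thioredoxin reductase (Txnrd1) by 1.76 ± 0.16. The cystine carrier Slc7a11 was at least 2.63-fold higher, a lower bound because no WT array was above background. It is counted among the 7, but only WT+MI, where it was high, admitted it to the test. Its calls here and in TG+MI against WT+MI both use that group. TG+MI against TG gave 4 of 10 higher, against 5.21% of all genes: Osgin1 (1.73 ± 0.36), Gclm, a subunit of the enzyme that begins glutathione synthesis (1.12 ± 0.20), Txnrd1 (1.04 ± 0.16) and Srxn1 (1.001 ± 0.19). The median there was 0.69, or 0.56 with Slc7a11 at its bound. Osgin1 lost that call without TG 2 or TG 3 (limma adjusted p = 0.051 and 0.0534). Srxn1 (-0.72 ± 0.19, limma adjusted p = 0.0382) and Txnrd1 (-0.72 ± 0.16, limma adjusted p = 0.029) were lower in TG+MI than in WT+MI, as Hmox1 was. Slc7a11 was called lower there too (limma adjusted p = 0.0242), but was above background on 1 of 3 TG+MI arrays; with the other TG+MI arrays at the lowest signal above background, it was 3.29-fold lower. With 1 array left out, Slc7a11 and Txnrd1 kept these calls in 9 of 12 fits and Srxn1 in 3.

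Among 10 tested genes of haem and haemoglobin scavenging and transport, 1 was higher and 5 lower in WT+MI against WT, where 18.6% and 29.3% of all genes were. Flvcr1, a haem exporter, differed by 0.83 ± 0.16, while its relative Flvcr2 (-2.07 ± 0.36), the haem and folate carrier Slc46a1 (-0.96 ± 0.23) and the haem-binding protein Hebp1 (-0.71 ± 0.14) were lower. Cd163, the macrophage receptor for haptoglobin bound to haemoglobin, read -0.07, 0.06 and 0.80 in TG+MI, against 1.78, 1.38 and 1.56 in TG. Those groups did not overlap, and the difference was -1.31 ± 0.34 (limma adjusted p = 0.0404), a call kept in 4 of the 12 fits that left out 1 array and lost, among others, without TG 1 or WT 1. The monocyte and macrophage sums given above, a list that holds Cd163, did not overlap between TG+MI and TG either, and their part was not tested. Lrp1, the receptor for haem bound to haemopexin, was lower in TG+MI than in TG (-0.61 ± 0.16) and higher in TG than in WT (0.70 ± 0.16, limma adjusted p = 0.0476). With 1 array left out, Lrp1 kept the first call in 3 of 12 fits and the second in 2. Fibroblast marker sums (7 tested) ran the same way in these groups, at 193 to 212 in TG+MI, 300.1 to 380.4 in TG and 232 to 263 in WT. In WT+MI they did not: the sums, 149 to 189, lay below those of WT. Lrp1 read 2.64 to 2.69 in WT+MI, above the 2.16 to 2.52 of WT. The part of fibroblast RNA in Lrp1 was not tested.

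Of 16 tested genes of iron uptake, reduction and delivery, 5 were higher and 4 lower in WT+MI against WT, against 18.6% and 29.3% of all genes; without WT+MI 2, 2 were lower. Lcn2, which binds iron-loaded siderophores and marks neutrophils, read 5.64, 5.72 and 5.02 in TG+MI, 5.87, 6.40 and 6.23 in WT+MI, -0.26, -0.16 and 0.14 in TG, and -0.19, -1.17 and -0.94 in WT. It was higher by 5.56 ± 0.27 in TG+MI than in TG (limma adjusted p = 6.8e-06), and its interaction was -1.38 ± 0.38 (limma adjusted p = 0.0493), a call kept in 2 of the 12 fits that left out 1 array. Steap1, of the metalloreductase family, was at least 12.7-fold higher in WT+MI than in WT and at least 3.19-fold higher in TG+MI than in TG, a bound of 4.99 without TG+MI 3 and 2.14 without TG+MI 2. Its relative Steap2 was higher in WT+MI by 2.07 ± 0.36. In TG+MI against TG, the metal carrier Slc39a8 (-1.45 ± 0.33), hephaestin (Heph, -1.25 ± 0.20), an oxidase that loads exported iron onto transferrin, and transferrin itself (Trf, -1.12 ± 0.31) were lower. Heph kept its call in all 12 fits that left out 1 array, Slc39a8 in 9 and Trf in 2. Lactoferrin (Ltf), a neutrophil granule protein, was at least 1.68-fold lower in WT+MI and at least 1.71-fold lower in TG than in WT. These calls are among those counted lower above. Ltf was above background on all WT arrays and on no other array, so only WT, where it was high, admitted it to the test. It read -1.76 in WT 1, -3.13 in WT 2 and -3.48 in WT 3, and without WT 1 both calls were lost and the bounds were 1.18 in WT+MI and 1.20 in TG. With 1 array left out, the call held in 10 of 12 fits in WT+MI against WT and in 7 in TG against WT.

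In the iron sensing and hepcidin group 2 of 8 tested genes were higher and 3 lower in WT+MI against WT, against 18.6% and 29.3% of all genes; without WT+MI 1, 1 was higher. Hamp, the hepcidin gene, whose product makes cells withdraw ferroportin, read -2.57, -0.53 and -1.45 in TG+MI, 2.71, -0.64 and -2.09 in WT+MI, and 2.02, -0.11 and 1.78 in TG, and was above background on 0 of 3 WT arrays. It was at least 13.8-fold higher in WT+MI and at least 32.6-fold higher in TG than in WT. The first bound was 5.39 without WT+MI 1 and 28.5 without WT+MI 3, and the second was 51.9 without TG 2. Atrial marker sums were above those of WT in the same groups, but in WT+MI 2 and WT+MI 3 only through Nppa. Nppa read 8.25 and 7.86 there, against 5.67 to 5.72 in WT. The atrial marker Myl4 read 0.66 and 0.83 on those arrays, against 1.12 to 1.39 in WT. It read 7.15 in WT+MI 1 and 6.90 to 9.05 in TG. The part of atrial RNA in Hamp was not tested. Haemojuvelin (Hjv), a coreceptor for hepcidin induction, was lower in WT+MI than in WT (-1.49 ± 0.19), as was its partner neogenin (Neo1, -0.75 ± 0.17). Hjv was higher in TG+MI than in WT+MI (0.81 ± 0.19, limma adjusted p = 0.0335), a call kept in 6 of the 12 fits that left out 1 array.

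**Figure D5:**
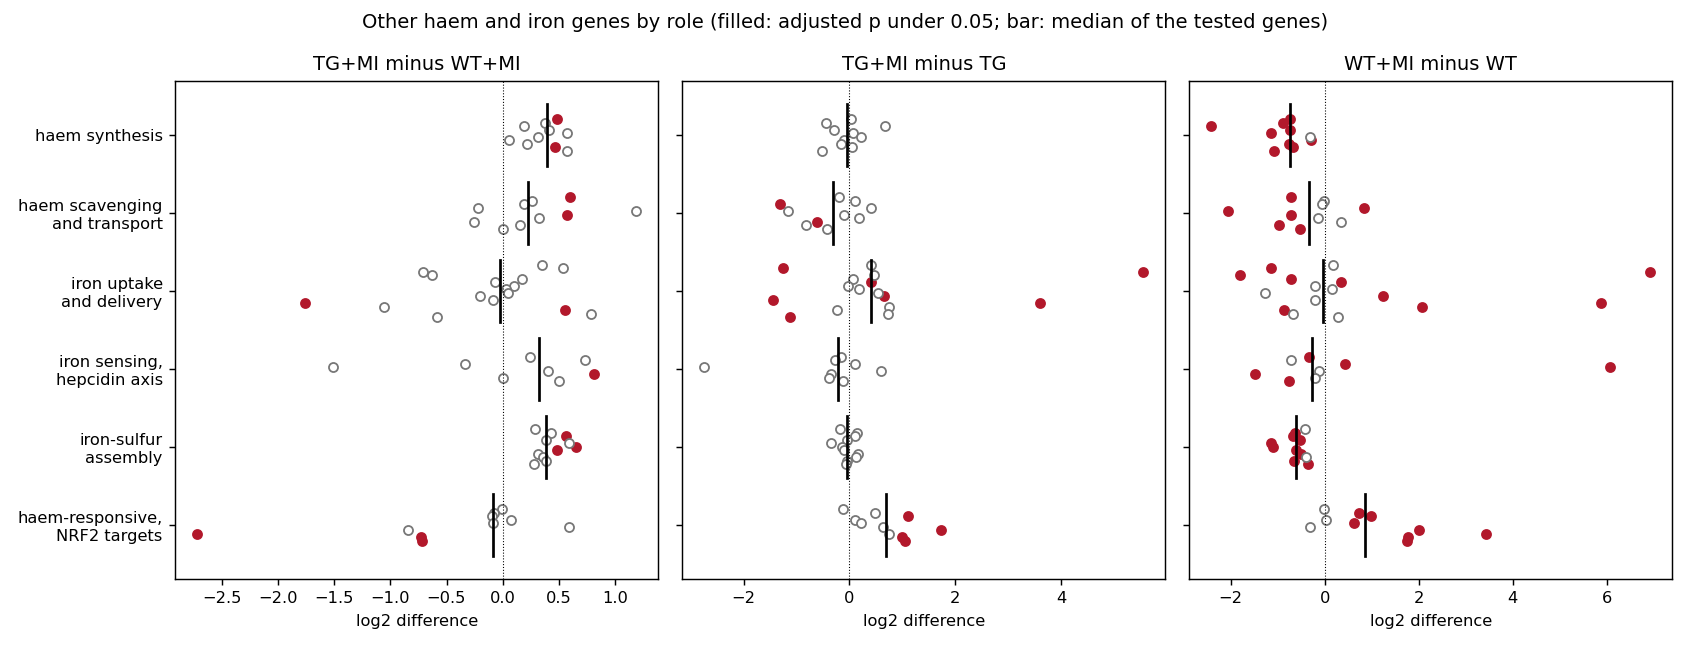
Log2 differences (horizontal axes) of the other tested haem and iron genes by role, in TG+MI minus WT+MI, TG+MI minus TG and WT+MI minus WT; filled symbols had a limma adjusted p under 0.05, and bars are medians. For Steap1, Slc7a11, Ltf and Hamp, where a group was below background, the symbol is the fitted value and not a bound. Haem synthesis and iron-sulfur genes lie mostly left of 0 in WT+MI minus WT and around 0 in TG+MI minus TG.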

How the data were processed

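Total RNA of 12 mouse heart samples was labelled with Cy3 and hybridised to 1-colour Agilent arrays, per the labels' protocols. Per the file headers, Feature Extraction 12.0.3.1 gave background-subtracted processed signals, which were deposited as linear intensity without normalization across arrays. A table of log2 values, deposited by the authors for the same arrays, ranks probes as the intensity does; how it was centred and normalized is unknown here, and it served as an alternative. The submitters' processing notes name limma.

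Outlier spots were left out, log2 intensity was averaged per probe, and the array's 75th percentile was subtracted; 49 probes had only outliers on some array. A gene was tested where its probe of highest mean passed the well-above-background flag on every array of at least 1 group. Some genes passed only through the groups where they were high. These were, among others, Ltf through WT and Slc7a11 through WT+MI. Steap1 passed through WT+MI and TG+MI, and Hamp through all groups but WT. limma 3.58.1 in R 4.3.3 (data.table, version 1.17.8) fitted a group-means model. A bound sets the bright group's mean against, on each dim array, the higher of the lowest signal well above background and the probe's own.

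WT+MI 2 and WT+MI 3 have titles with another prefix and were placed by their characteristics. The members and all lists were chosen with earlier results of these data known. Named are all 10 members and at most 4 called genes per role and comparison, by size of difference. One such gene and one probe sequence are not reported here. The fit was tested on simulated data. The number of arrays limits the precision.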

Additional observations from a re-analysis of the deposited data

Results flagged for a closer look

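The infarction response differed between transgenic and wild-type hearts for 3 of the 10 genes, by limma's test of the difference itself, with TG+MI minus TG set against WT+MI minus WT. For Hmox1 the difference of responses was -2.17 on the log2 scale (limma adjusted p = 0.0156), for Hp -4.59 (limma adjusted p = 0.0409) and for Slc11a1 -1.86 (limma adjusted p = 0.0462). Over all tested genes 8.90% differed in this way. With slide as a block, 0 of the 3 passed, with limma adjusted p of 0.125 for Hmox1, 0.262 for Hp and 0.233 for Slc11a1. With 1 array left out, Hmox1 kept its call in 12 of 12 fits, Hp lost it in 8 and Slc11a1 in 10. Groups of 3 arrays are too small for a test of single outlying arrays, and TG 1 for Hp is given in the report as values.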

How the results depend on the processing

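The calls of WT+MI against WT for Hmox1, Hp, Slc11a1, Ftl1 and Tfrc held under every alternative run, as did those of Hmox1 and Tfrc in TG+MI against TG except on slide 2 alone, where 0 members and 0 genes were called. With no filter on dim probes, 1 member was called in TG+MI against WT+MI and 1 in the interaction, and the genes called numbered 205 in TG against WT, 14 in TG+MI against WT+MI, 955 in TG+MI against TG and 55 in the interaction, against 518, 2405, 1749 and 1758. With slide as a block, 0 members were called in TG+MI against WT+MI and 0 in the interaction, and 320, 0, 119 and 3 genes in the same order. Fitting only the compared groups left 0 members in TG+MI against WT+MI and gave 904, 0 and 690 genes in the first 3 of those comparisons. Replicate numbers did not pair the arrays: 1 of 18 same-numbered pairs correlated above 0.1. The replicate block gave 342 genes in TG against WT and 1156 in the interaction, where Slc11a1 lost its call (limma adjusted p = 0.0605). Leaving out 1 array in turn gave 0 to 3 members in TG+MI against WT+MI, 1 to 4 in the interaction, and 137 to 866 genes in TG against WT, 0 to 3524 in TG+MI against WT+MI, 690 to 2286 in TG+MI against TG and 58 to 2691 in the interaction. No called difference changed sign. Of single values, 1074 kept their side of the threshold, 36 lost a call and 10 gained one, while 2 to 20 uncalled ones changed sign in each comparison. The median of all genes lay at -0.14 in WT+MI against WT and at 0.14 in the interaction, and differences are not corrected for it. The causes of these changes were not tested beyond the arrays named. The percentile over spots and the counts, differences and bounds of other genes without 1 array were chosen after seeing the data.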

Other observations

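Erythroid genes, which carry most of the body's haem iron, were lower in WT+MI than in WT for 7 of 11 tested markers. Of all genes 29.3% were lower. The markers' median difference was -1.77, against -0.14 over all genes, and Rhag was never above background. Hbb-b1, an adult beta-globin gene, read 3.83, 3.38 and 3.82 in WT+MI, against 8.03, 4.58 and 5.73 in WT, and differed by -2.44 ± 0.76 (limma adjusted p = 0.0229). The alpha-globin gene Hba-a1 differed by -0.33 ± 0.22 (limma adjusted p = 0.234). Leaving out 1 array in turn gave 1 to 7 of the 11 lower, with 1 without WT+MI 2, 3 without WT+MI 1, 4 without WT+MI 3 and 2 without WT 1, where the median was -1.19. Hbb-b1 differed by -1.48 without WT 1 (limma adjusted p = 0.0625). In TG against WT 0 of 11 were called, where 1.13% of all genes were lower. The median there was -1.91, and the sums were 672, 880 and 1212 in TG. Globin genes have close copies, so their probes may not be read apart.

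The binding motif of NRF2, the antioxidant response element core TGACNNNGC, was searched on both strands in the 250 bases before the start of each gene in a RefSeq promoter table of GRCm38.p6. It was found in 10.2% of 32851 promoters. The table held 9 promoters, of 6 of the 10 members. It held none of Hmox1, Slc40a1, Slc11a2 or Hp, which were therefore not searched. Of the 9, 1 (11.1%), that of Blvra, had a match, close to the share of all promoters. The match lies 49 bases before the start, and its plus-strand surroundings, chr2:127070598-127070627, are shown. The motif is on the opposite strand, so the capitals mark its reverse complement.
Blvra promoter: cacgggaattGCTCGGTCAaggctccgcct
Blvra did not pass the test in any comparison, as given in the report.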
